A study of Mus musculus with 2 samples.

Results

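The 10 genes described here are serine proteases of the Prss family known from the testis: Prss21, Prss37, Prss39, Prss42, Prss44, Prss46, Prss50, Prss52, Prss54 and Prss55. They were taken by symbol from the 51868 rows of the count matrix and are 10 of the 39 rows whose symbol is Prss followed by a number. All 10 were detected, with totals from 208 UMIs (unique molecular identifiers, each standing for 1 captured RNA molecule) for Prss50 to 32300 for Prss39 and 81839 UMIs in all. Of the other 29 rows of the family, 8 had no UMI, 10 had between 1 and 99 and 11 had at least 100.

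Cells came from the whole testis of 2 C57Bl/6J Crl mice aged 8 weeks, with 1 droplet library for each mouse, no treatment and no second group. The tubules had been digested with enzymes and strained, a step meant to hold back somatic cells. The matrix held 1237 cells with 27450497 UMIs in mouse 1 and 1315 cells with 30302332 UMIs in mouse 2, between 7114 and 154431 UMIs per cell, and 0 cell barcodes were shared by the mice. The paper describes the mice as littermates, so the spread between mice is that of 2 related animals of 1 strain and age.

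Cells were grouped without the family: every gene whose symbol starts with Prss was left out of the clustering. The 6 clusters with at least 20 cells in each mouse held 2532 of 2552 cells and were numbered along pseudotime, an order of cells by similarity of expression. Cluster 1 was early spermatocyte-like (162 cells), cluster 2 pachytene or later spermatocyte-like (531 cells), cluster 4 round spermatid-like (431 cells), and clusters 5 and 6 elongating or condensing spermatid-like (198 and 506 cells). Cluster 3 (704 cells), led by Ssxb1, Ssxb2 and Ssxb3, stayed unnamed because only 2 of 12 round spermatid markers passed the condition for a name. Cluster 5 also passed 8 of the 12 round spermatid markers. The remaining cells were spermatogonium-like (8 cells), Sertoli-like (7 cells) and Leydig-like (5 cells), and no immune or peritubular cluster appeared in what the labels call whole testis. These small clusters were mixed in their markers. The spermatogonium-like cells passed 10 of 13 spermatogonium markers, but also 10 of 13 Sertoli and 7 of 12 early spermatocyte markers. The Sertoli-like cells also passed 7 of 13 spermatogonium markers, and the Leydig-like cells 6 of 13 Sertoli markers. Levels are given as CPM, UMIs per 1000000 UMIs of all genes in the same cluster and mouse.

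Trypsin-type serine proteases cut proteins with a triad of amino acids, a histidine, an aspartate and a serine, of which the serine attacks the peptide bond. In the male germ line many of them are anchored to the cell membrane or stored in the acrosome, the vesicle at the tip of the sperm head that opens at fertilization. Some members lack part of the triad and are thought to act without cutting. Some, with or without a complete triad, are needed for the maturation of ADAM3. Sperm without this surface protein do not pass from the uterus into the oviduct.

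The stretch of coding sequence around the active-site serine shows which members keep the catalytic residue. Each line below gives 27 bases of the GENCODE transcript, on the coding strand, with the codon aligned to the active-site serine of trypsin in capitals.
Prss21: tgctttggtgacTCGggaggacccttg
Prss42: tgccagggagatTCTggaggcccgatg
Prss44: tgccagggagatTCTgggggccccctg
Prss46: tgtcaggacaccTCCggaagctctctg
Prss50: tgctatgagataACTggcgagcccctg
Prss39: tgccgaggagacTCTgggggccccctg
Prss54: tgcctgggggaaCCAggaagccctatg
Prss37: tttggggaggttGCTgtagctactgtc
Prss52: tgccagggcgacAGTggaggagctctc
Prss55: tgccagggtgacAGTgggggaccgctt
In 6 of the 10 members, Prss21, Prss42, Prss44, Prss46, Prss52 and Prss55, the aligned codons at all 3 positions encode the catalytic residues. The capital codon encodes threonine in Prss50, alanine in Prss37 and proline in Prss54. Prss39 keeps the serine codon but has asparagine at the aspartate position. Prss54 has none of the 3 residues, with serine at the histidine position and asparagine at the aspartate position. None of the windows of 98 bases, the length of the RNA read, in any member's transcripts occurred unchanged in GENCODE transcripts of genes outside the 10 members. The search did not count windows shared between members, and repeat sequences were not searched.

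In the 6 clusters the members were high one after another (plot of levels by cluster). Prss44 and Prss50 were highest in cluster 1, Prss21 and Prss42 in cluster 2, Prss39 and Prss46 in cluster 3, Prss54 in cluster 4, Prss37 and Prss52 in cluster 5 and Prss55 in cluster 6. The highest cluster was the same in each mouse for all but Prss44. For Prss44 the first 2 clusters were level, and for Prss39 the 5 clusters after the first were within a narrow range of CPM. With the scaling of the tests below, Prss39 was called higher in cluster 6 than in cluster 3 (log2 fold of cluster 3 over cluster 6 -1.21, edgeR adjusted p = 2.9e-08). Of 47 pairs of a member and a cluster with at least 20 UMIs in each mouse, the mice were within 0.5 on the log2 scale in 41, with a median absolute difference of 0.16.

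**Figure D1:**
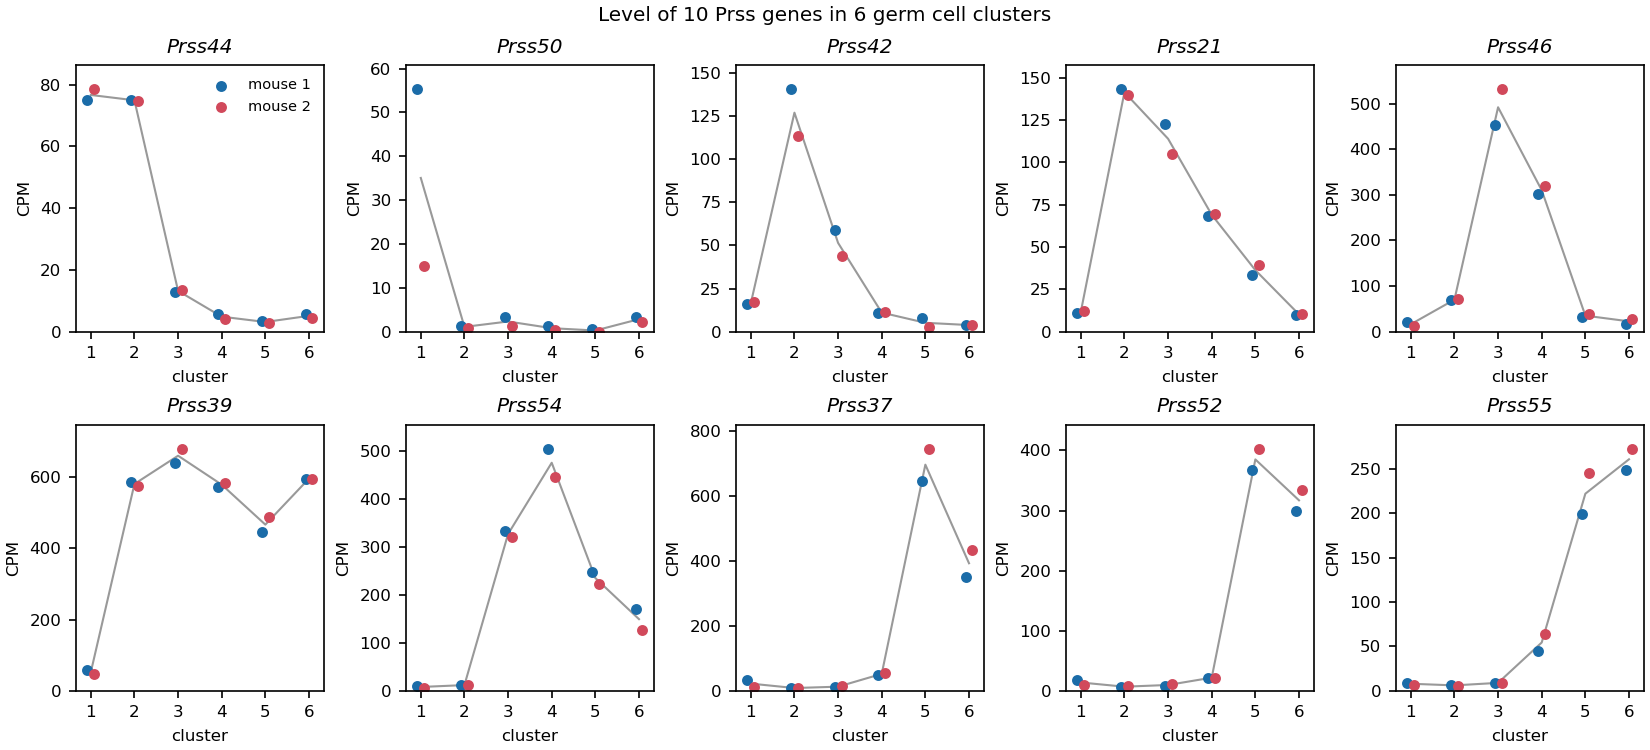
Level of each member (CPM, linear axis from 0, each panel with its own scale) in clusters 1 to 6. Blue points are mouse 1, red points mouse 2 and the line joins their means. Panels run from the earliest to the latest member. Prss44 and Prss50 are highest in cluster 1, Prss37, Prss52 and Prss55 in clusters 5 and 6, and the mice lie apart mainly for Prss50 in cluster 1.

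Each cluster was tested against the one before it with edgeR's quasi-likelihood test on UMI sums per mouse and cluster, with adjustment over 14075 genes, in which all 10 members passed the filter on low counts. From cluster 1 to cluster 2, 5 members rose and 2 fell, where 25.8% of all genes rose and 24.6% fell. From cluster 2 to cluster 3, 5 rose and 2 fell, against 31.9% and 31.6% of all genes. From cluster 3 to cluster 4, 4 rose and 4 fell, against 26% and 20.4% of all genes. From cluster 4 to cluster 5, 3 rose and 3 fell, against 23.2% and 21%. From cluster 5 to cluster 6, 4 rose and 1 fell, against 16.5% and 23.5%. The median log2 fold over the 10 members was 0.60, 0.60, -0.17, -0.26 and 0.29 at the 5 steps, and that over all genes lay between -0.060 and 0.0092.

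These folds are relative to TMM scaling, which sets the bulk of genes level, whereas CPM refer to all UMIs. With scaling to total UMIs, the median of all genes was lower by 0.23, 0.05, 0.25, 0.50 and 0.59 on the log2 scale at the successive steps. The members rising and falling were then 5 and 3 into cluster 2, against 20.5% and 31.3% of all genes, 4 and 3 into cluster 3, against 31% and 34.5%, and 4 and 4 into cluster 4, against 21.9% and 33.2%. From cluster 4 to cluster 5 the members gave 3 higher and 5 lower, against 17.1% and 39.3% of all genes. From cluster 5 to cluster 6 they gave 1 higher and 4 lower, against 6.12% and 36.7%. At this last step Prss42 and Prss52 changed sign between the scalings without a call on either. The other 8 members kept their direction. Prss21 was called lower and Prss39 higher on both scalings. The rises of Prss44, Prss50 and Prss55 were called with TMM scaling only. The falls of Prss37, Prss46 and Prss54 were called with total UMI scaling only.

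**Figure D2:**
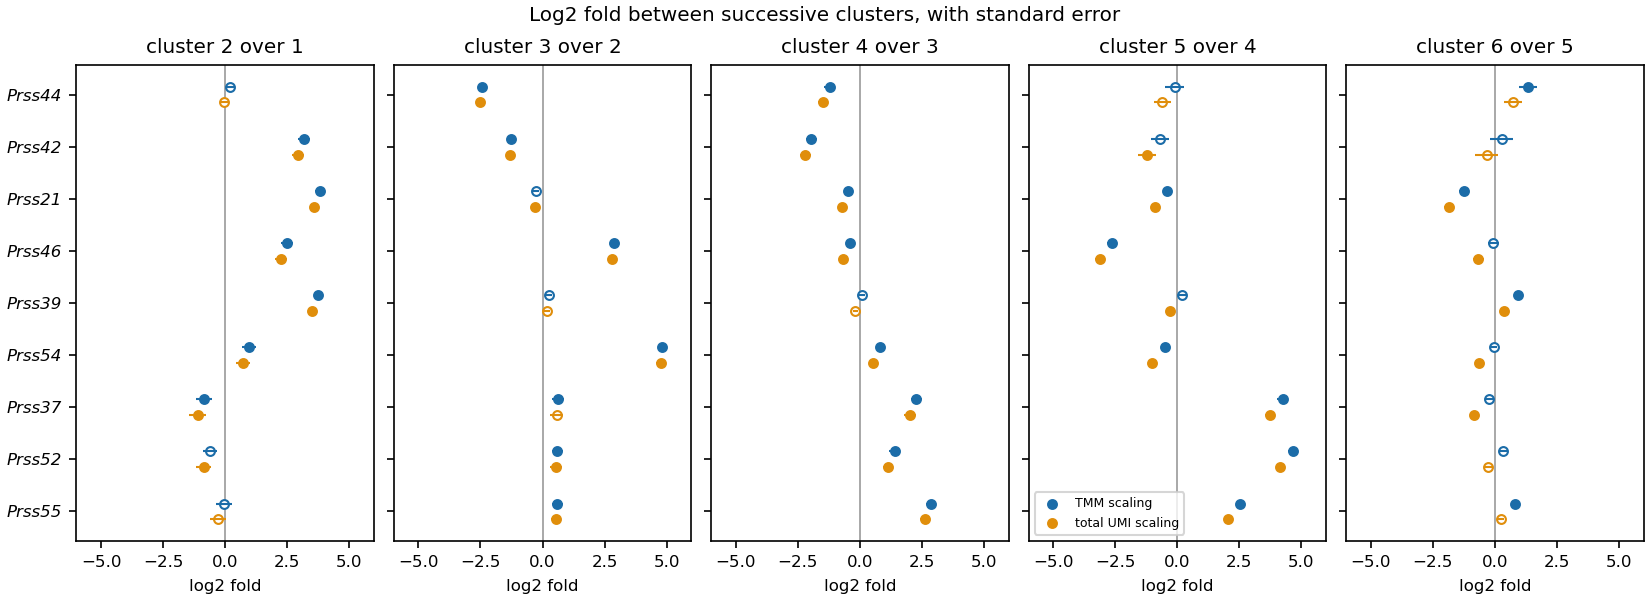
Log2 fold between successive clusters, with its standard error, for the 9 members with more than 1000 UMIs. Blue marks TMM scaling and orange scaling to total UMIs, and filled points have an adjusted p under 0.05. The 2 scalings lie close together up to cluster 4 and are furthest apart for cluster 6 over 5, where Prss52 has a blue value of 0.32 and an orange value of -0.28.

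Of the 10 members, 4 lie side by side on chromosome 9 (GRCm38), all on the plus strand: Prss42 at chr9:110798166-110803754, Prss44 at chr9:110813994-110824523, Prss46 at chr9:110844506-110856522 and Prss50 at chr9:110857967-110864629. Prss43 and Prss45 lie between Prss44 and Prss46. Of 20 pseudotime bins, Prss44, Prss43 and Prss45 were highest in the same one, bin 2, in each mouse. Prss42 followed in bins 5 and 3. Prss46 was highest later, in bins 10 and 11, and Prss50, with few UMIs, in bin 1. The order along the chromosome was not the order in which these genes were high. The plot of the chromosome 9 neighbours shows all 6 along pseudotime.

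Prss44 was already high in the early spermatocyte-like cluster 1. Its level was 74.9 and 78.5 CPM in cluster 1 and 75.1 and 74.8 CPM in cluster 2, for mouse 1 and mouse 2, which did not differ beyond the spread (log2 fold 0.22 ± 0.16 SE, edgeR adjusted p = 0.27). It then fell to 12.7 and 13.6 CPM in cluster 3 (log2 fold -2.44 ± 0.16 SE, edgeR adjusted p = 9.7e-12) and to 5.60 and 4.06 CPM in cluster 4 (log2 fold -1.23 ± 0.23 SE, edgeR adjusted p = 9.6e-05). In clusters 5 and 6 it stayed between 2.83 and 5.64 CPM. The rise called between those clusters (log2 fold 1.33, edgeR adjusted p = 0.0064) was not called with total UMI scaling (log2 fold 0.74, adjusted p = 0.16).

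Prss42, a membrane-anchored protease linked to the survival of germ cells in meiosis, rose between the spermatocyte-like clusters and fell after them. It had 15.9 and 16.9 CPM in cluster 1 and 141 and 114 CPM in cluster 2, a rise of 3.19 ± 0.24 SE on the log2 scale (edgeR adjusted p = 3.4e-10). In cluster 3 it had 58.9 and 44.1 CPM and in cluster 4 10.7 and 11.3 CPM, and both falls were called (log2 folds -1.26 and -1.95, edgeR adjusted p = 2.2e-06 and 1.2e-07). From cluster 4 on, at levels from 2.48 to 11.3 CPM, no step was called with TMM scaling, while the step into cluster 5 was called lower with total UMI scaling (log2 fold -1.22, edgeR adjusted p = 0.0081). Prss42 was thus low where Prss44 was already high, and both were low in all spermatid-like clusters.

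Prss46 was high later than its neighbours. It had 20.6 and 11.6 CPM in cluster 1, 69.4 and 70.5 in cluster 2 and 453 and 531 in the unnamed cluster 3, with called rises of 2.50 ± 0.24 SE and 2.87 ± 0.17 SE on the log2 scale (edgeR adjusted p = 1.3e-08 and 1.1e-12). The level was 301 and 319 CPM in cluster 4 (log2 fold -0.41 ± 0.16 SE, edgeR adjusted p = 0.037), lower than cluster 3 in each mouse. It fell steeply to 30.9 and 39.0 CPM in cluster 5 (log2 fold -2.63 ± 0.19 SE, edgeR adjusted p = 8.7e-11). The value of 17.5 and 27.4 CPM in cluster 6 was not called with TMM scaling (log2 fold -0.067) and was lower with total UMI scaling (log2 fold -0.67, edgeR adjusted p = 0.018).

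Prss50, known as a cancer-testis antigen with a threonine in place of the active-site serine, was found in few cells. It had a UMI in 83 cells, 3.25% of all. In cluster 1 it had 55.2 CPM in mouse 1 (59 UMIs, exact Poisson interval 42.1 to 71.3) and 14.9 CPM in mouse 2 (36 UMIs, 10.4 to 20.6). These UMIs were in 13 of 51 cells and 7 of 111 cells, so few cells carried the level. The intervals, which cover counting error only, do not overlap. In clusters 2 to 6 it lay between 0 and 3.39 CPM, and the fall into cluster 2 was called (log2 fold -4.49 ± 0.52 SE, edgeR adjusted p = 1.9e-07). The step from 20 UMIs in cluster 2 to 31 in cluster 3 was called with mouse as a block (adjusted p = 0.017) but not without it (0.17). The spermatogonium-like cells, 4 in each mouse, held 9 and 21 UMIs, or 201 CPM (interval 92 to 382) and 478 CPM (296 to 730), above cluster 1 in each mouse, with too few cells for the test. Of the 7 Sertoli-like cells, 1 cell of mouse 1 held 5 UMIs and no other cell held any. Cluster 5 held 1 UMI and cluster 6 held 19, a ratio of 14.1 with an exact interval of 2.23 to 584 for counting error, and the call for this step was lost with total UMI scaling (edgeR adjusted p = 0.015 and 0.066).

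**Figure D3:**
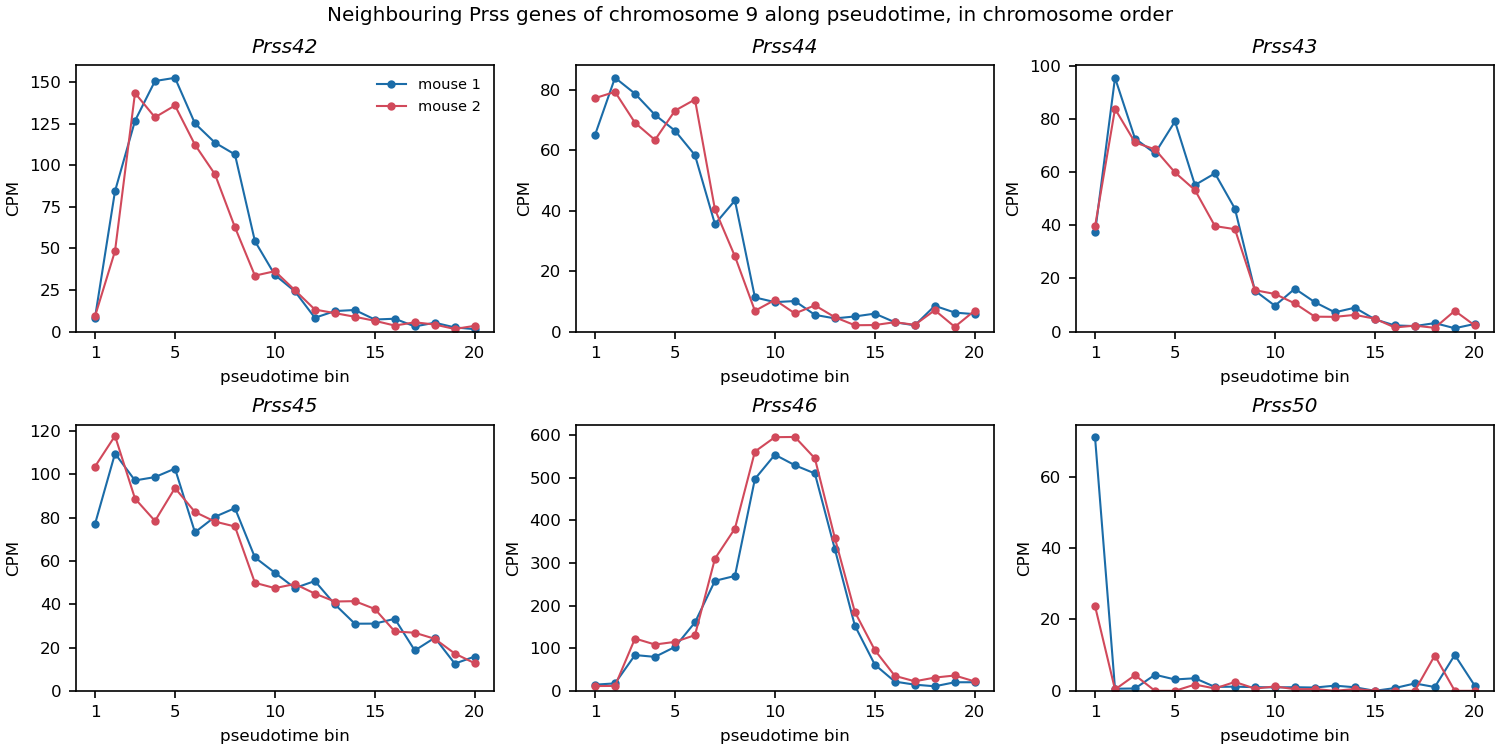
CPM of the 6 neighbouring genes of chromosome 9 in 20 pseudotime bins with equal numbers of cells, blue for mouse 1 and red for mouse 2, in chromosome order and each on its own scale. Prss42, Prss44, Prss43 and Prss45 are high in the early bins, Prss46 has its highest values in bins 10 and 11, and Prss50 stands out only in bin 1.

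Prss21 encodes testisin, a protease held on the membrane by a lipid anchor, and lies at chr17:23868056-23873114. It had 11.2 and 12 CPM in cluster 1 and 143 and 140 CPM in cluster 2, a rise of 3.83 ± 0.20 SE on the log2 scale (edgeR adjusted p = 1.3e-12). After that it declined slowly, with 123 and 105 CPM in cluster 3, 68.5 and 69.7 in cluster 4, 33.3 and 39.3 in cluster 5 and 9.87 and 10.4 in cluster 6. The mice did not overlap between any of these clusters. The step from cluster 2 to cluster 3 was not called (log2 fold -0.26 ± 0.13 SE, edgeR adjusted p = 0.097), but was with mouse as a block (0.020) and with total UMI scaling (0.028). The other 3 falls were called, by 0.46, 0.41 and 1.26 on the log2 scale (edgeR adjusted p = 0.0082, 0.041 and 2.9e-05).

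Prss39, an acrosomal protease of sperm at chr1:34498410-34503063, rose most into cluster 2 and had 444 to 679 CPM from there on. Its level was 58.0 and 46.2 CPM in cluster 1 and 586 and 574 in cluster 2 (log2 fold 3.76 ± 0.16 SE, edgeR adjusted p = 1.3e-13). It was 640 and 679 CPM in cluster 3, 573 and 583 in cluster 4, 444 and 488 in cluster 5 and 595 and 595 in cluster 6. From cluster 2 to cluster 5 no step was called (edgeR adjusted p = 0.11 to 0.73), while mouse as a block called the step into cluster 3 (log2 fold 0.24, adjusted p = 0.041). The step from cluster 4 to cluster 5 had a log2 fold of 0.19 with TMM scaling and -0.31 with total UMI scaling (edgeR adjusted p = 0.26 and 0.025). The last step was called on both scales, with log2 folds of 0.95 and 0.35 (edgeR adjusted p = 4.3e-06 and 0.017). In UMIs per cell the mean was highest in cluster 2 with 19.6 and lowest of the later clusters in cluster 6 with 7.81. After thinning each cell to 5000 UMIs, 87.4% to 96.4% of cells had a Prss39 UMI in clusters 2 to 6 and 23.5% and 25.2% in cluster 1, or 99.1% to 100% and 51.0% and 54.1% without thinning.

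Prss54, at chr8:95559069-95576340 on the minus strand and without any residue of the triad, marked the middle of the order. It had 10.3 and 5.78 CPM in cluster 1, 12.5 and 11.5 in cluster 2 and 333 and 321 in cluster 3. The last of these rises, 4.82 ± 0.17 SE on the log2 scale, was the largest step of any member up to cluster 4 (edgeR adjusted p = 6.3e-16). In clusters 1 and 2 Prss54 lay at 1.29% to 2.58% of its highest level, beside 1.58% to 3.28% for Prm1, a protamine gene of condensing spermatids. The rise between these clusters (log2 fold 0.97, edgeR adjusted p = 0.0062) was not called with DESeq2 (adjusted p = 0.095). The part of stray RNA in it was not tested. Prss54 reached 505 and 447 CPM in cluster 4 (log2 fold 0.80 ± 0.14 SE, edgeR adjusted p = 4.6e-05). In cluster 5 it had fallen to 247 and 223 CPM (log2 fold -0.52 ± 0.14 SE, edgeR adjusted p = 0.0046). In cluster 6 it had 172 and 128 CPM, which was not called with TMM scaling (log2 fold -0.053, edgeR adjusted p = 0.82) and was lower with total UMI scaling (log2 fold -0.65, adjusted p = 0.0010). The share of thinned cells with a UMI was 91.6% and 88.5% in cluster 4 against 9.65% and 6.36% in cluster 2, or 100% in each mouse and 27.3% and 28.2% without thinning.

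The 3 late members were Prss37, Prss52 and Prss55. Loss of Prss37 or Prss55 in mice leaves males sterile with ADAM3 not matured. Prss37 lies at chr6:40514824-40519508 on the minus strand. Prss55 (chr14:64075438-64090162, minus strand) and Prss52 (chr14:64104286-64113755, plus strand) are separated by Prss51, which overlaps Prss55 on the opposite strand without sharing an exonic base. Whether the counting used strand is not given in the sources used here.

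Prss37, which has alanine in place of the catalytic serine, had 9.24 and 8.03 CPM in cluster 2, 11.6 and 14 in cluster 3 and 49.7 and 54.6 in cluster 4. It then rose to 647 and 745 CPM in cluster 5 (log2 fold 4.24 ± 0.22 SE, edgeR adjusted p = 3.4e-13) and had 352 and 434 CPM in cluster 6. Both mice were thus highest in cluster 5 and intermediate in cluster 6, without overlap. The step into cluster 6 was not called with TMM scaling (log2 fold -0.23, edgeR adjusted p = 0.38) and was lower with total UMI scaling (log2 fold -0.83, adjusted p = 0.0013). Thinned cells had a Prss37 UMI in 94.3% and 98.2% of cluster 5, 60.5% and 65.3% of cluster 6 and 6.43% and 2.73% of cluster 2. Without thinning the shares were 100%, 78.3% and 84.4%, and 24.8% and 24.1%.

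Prss52 also had its largest rise into cluster 5. It had 22.2 and 21.6 CPM in cluster 4, 367 and 403 in cluster 5 and 300 and 334 in cluster 6. The rise into cluster 5 was 4.64 ± 0.19 SE on the log2 scale (edgeR adjusted p = 1.6e-14). The last step was not called on either scale, at log2 folds of 0.32 with TMM and -0.28 with total UMI scaling (edgeR adjusted p = 0.11 and 0.14), and was called higher with mouse as a block (0.0089).

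Prss55 began earlier and stayed high longer. It had 8.77 and 9.17 CPM in cluster 3, 45.1 and 63.8 in cluster 4, 199 and 245 in cluster 5 and 249 and 273 in cluster 6, each value of a mouse above its own value in the cluster before. The rises into clusters 4 and 5 were 2.86 ± 0.20 SE and 2.53 ± 0.17 SE on the log2 scale (edgeR adjusted p = 5.2e-11 and 2.1e-11). The rise into cluster 6 was 0.83 ± 0.16 SE with TMM scaling (edgeR adjusted p = 1.7e-04) and 0.23, not called, with total UMI scaling (adjusted p = 0.24). In UMIs per cell the highest mean was in cluster 5, with 5.48 against 3.43 in cluster 6, whose cells had a median of 11705 UMIs against 23510.

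Before cluster 4 the late members were at a small share of their highest level. In cluster 1, for mouse 1 and mouse 2, Prss37 lay at 5.21% and 1.44% of it and Prss52 at 5.10% and 2.25%. Prss55 lay at 3.76% and 2.42% there, and Prm1 at 3.28% and 2.03%. In clusters 2 and 3, Prss37 lay at 1.08% to 1.88% of its highest level, Prss52 at 1.63% to 2.83% and Prss55 at 2.16% to 3.53%, beside 1.58% to 2.85% for Prm1, a protamine gene of condensing spermatids. All 3 were called higher in cluster 3 than in cluster 2, by 0.60 to 0.62 on the log2 scale (edgeR adjusted p = 0.024 to 0.041), and Prm1 was higher at the same step by 0.85 (adjusted p = 0.011). The call was lost for Prss37 with total UMI scaling, DESeq2 and thinned cells (adjusted p = 0.068, 0.093 and 0.11), for Prss52 with Leiden clustering (0.065), and for Prss55 with Leiden clustering and thinned cells (0.79 and 0.087). The part of stray RNA in these small rises was not tested. In cluster 4, Prss55 stood at 18.1% and 23.4% of its highest level, Prss37 at 7.68% and 7.33% and Prss52 at 6.04% and 5.37%. Of the genes of protamines and transition proteins in cluster 4, Prm1 stood at 3.66% and 3.03%, Prm2 at 4.40% and 3.56%, Tnp2 at 3.73% and 3.84% and Tnp1 at 5.81% and 5.72%.

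Most of the Prss37 UMIs of mouse 1 in cluster 1 were in cells called as doublets. Of the 36 Prss37 UMIs of mouse 1 there, 28 were in 2 such cells, and without them the level fell from 33.7 to 8.01 CPM, beside 10.7 and 10.4 CPM in mouse 2 with and without its 1 such cell. Prm1 in the same cells fell from 2979 to 1635 CPM in mouse 1 and from 1380 to 1215 CPM in mouse 2. The fall of Prss37 from cluster 1 to cluster 2 (log2 fold -0.86 ± 0.32 SE, edgeR adjusted p = 0.031) was 0.025 and not called without the doublets. Prss50 in cluster 1 kept its difference between the mice, with 49.1 and 15 CPM.

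Along pseudotime, cut into 20 bins with equal numbers of cells, the members again took turns (heat map along pseudotime). The highest bin was 1 for Prss50, 2 for Prss44, 4 for Prss21, 13 for Prss54, 17 for Prss52 and 18 for Prss55, in each mouse. It was 5 and 3 for Prss42, 10 and 11 for Prss46 and 16 and 17 for Prss37. Prss39 was at 50% or more of its highest bin in 18 of 20 bins, so its highest bins, 3 and 7, mark no peak, whereas Prss37 and Prss52 passed that mark in 3 bins each. The bins also divide cluster 6: Prss37 had 565 and 874 CPM in bin 17 and 121 and 153 CPM in bin 20, and Prss52 fell from 541 and 701 CPM to 83.5 and 67.1 CPM. Prss55 declined less over the same bins, from 267 and 290 CPM to 235 and 209 CPM, and Prss39 had 675 and 646 CPM in bin 20.

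**Figure D4:**
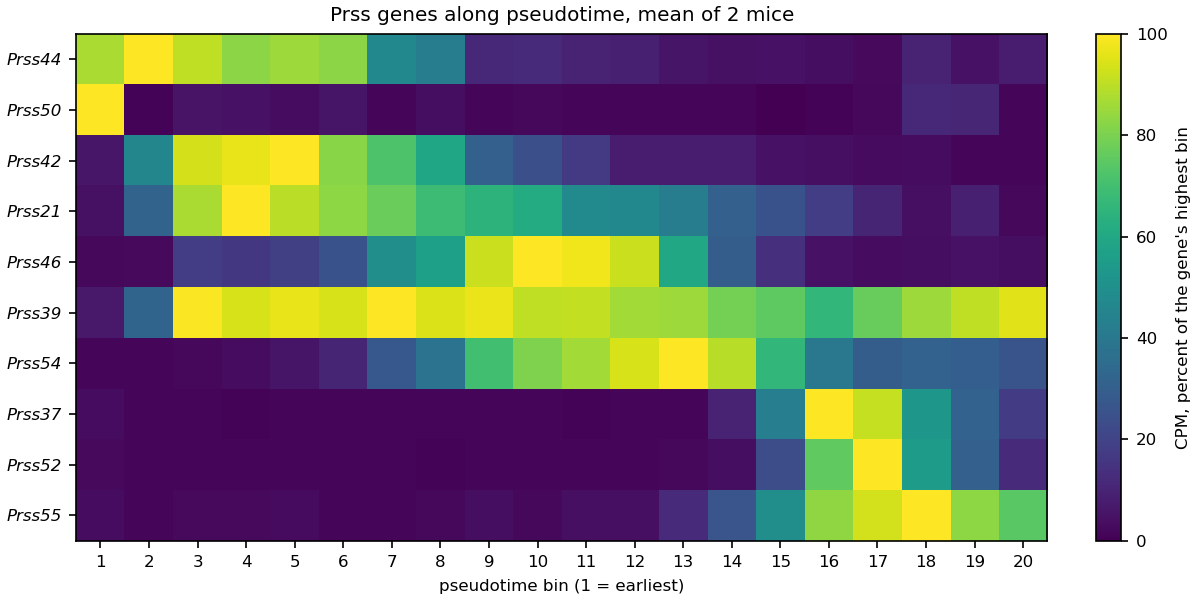
Heat map of the 10 members (rows, earliest at the top) over 20 pseudotime bins (columns, 1 the earliest), as the mean CPM of both mice in percent of each gene's highest bin. Bright squares move from bins 1 and 2 for Prss50 and Prss44 to bins 16 to 18 for Prss37, Prss52 and Prss55, while Prss39 stays bright from bin 3 on.

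In the order of each member's levels, several neighbouring clusters that are not successive were not called different on the TMM scale. These pairs were not tested with total UMI scaling. Between clusters 1 and 3, where 70.5% of all genes were called, neither Prss37 (means of 22.2 and 12.8 CPM), Prss52 (13.9 and 9.76 CPM) nor Prss55 (7.98 and 8.97 CPM) was called (edgeR adjusted p = 0.52, 0.98 and 0.12). Prss42 had 16.4 CPM in cluster 1 and 11 in cluster 4 (adjusted p = 0.94, with 78.3% of all genes called), and Prss46 had 69.9 in cluster 2 and 34.9 in cluster 5 (adjusted p = 0.43, with 77.3% called). Prss54 had 327 CPM in cluster 3 and 235 in cluster 5 (adjusted p = 0.091, with 62.7% called) and was called with mouse as a block (0.020), on the TMM scale higher in cluster 5. Between clusters 3 and 6, where 66.8% of all genes were called, Prss44, with means of 13.2 and 5.10 CPM, was not called (adjusted p = 0.97). Prss39, with 659 and 595 CPM, was called higher in cluster 6 on the TMM scale (log2 fold of cluster 3 over cluster 6 -1.21, adjusted p = 2.9e-08), opposite to the order of its CPM. Prss21 had 11.6 CPM in cluster 1 and 10.1 in cluster 6. It too was called higher in cluster 6 (log2 fold of cluster 1 over cluster 6 -1.45, edgeR adjusted p = 3.2e-05). Prss39 had 580 CPM in cluster 2 and 578 in cluster 4 and was called higher in cluster 4 (log2 fold of cluster 2 over cluster 4 -0.31, edgeR adjusted p = 0.038). Shares of all genes were not computed for these last pairs. In the pairs given here for Prss42, Prss44, Prss46 and Prss54, the mice did not overlap in CPM.

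Among the members, the patterns of Prss37 and Prss52 were the most alike, with a Pearson's r of 0.979 over the 20 bins in the mouse with the lower value, and Prss44 and Prss54 were among the most opposed (r = -0.859). These r are descriptions over bins that share libraries, on log2(CPM + 10). Of 7887 other genes with at least 500 UMIs, those closest to Prss55 were Sppl2c (r = 0.993) and Gprc5b (0.988), and those closest to Prss37 were Tuba8 (0.988) and Trp53tg5 (0.985). Prss52 was closest to Actrt3 (0.982) and Trp53tg5 (0.979), so that Trp53tg5 was near both. Prss54 was closest to Ankrd61 (0.985) and Spatc1l (0.983), Prss46 to 1700001F09Rik (0.972) and 1700022I11Rik (0.971), and Prss39 to Svip (0.970) and Nme8 (0.969). Of the early members, Prss44 was closest to Tcam1 (0.987) and Unc50 (0.981), Prss42 to Slc22a21 (0.980) and Tspan5 (0.979), and Prss21 to Dhrs4 and Tex22 (0.975 each). Prss50, with few UMIs, had the least close matches, Ctsl (0.883) and Ndufa1 (0.829).

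The immediate neighbours were taken for their position. Prss43 fell into cluster 3 like Prss44, with 47.7 and 52.9 CPM in cluster 1, 78.1 and 71.1 in cluster 2 and 22.5 and 18.3 in cluster 3. Unlike Prss44, it was called higher in cluster 2 than in cluster 1 (log2 fold 0.81, edgeR adjusted p = 7.2e-04). Prss45 had 80.5 and 101 CPM in cluster 1 and 100 in each mouse in cluster 2, so that only mouse 1 rose in CPM. The step was called higher with TMM scaling (log2 fold 0.37, edgeR adjusted p = 0.046). At this step the median of all genes was lower by 0.23 with total UMI scaling. From there Prss45 declined more slowly, to 19.2 and 20.5 CPM in cluster 6. Prss51, between Prss55 and Prss52 on chromosome 14, was as late as they were, with 9.75 and 9.30 CPM in cluster 4, 182 and 213 in cluster 5 and 236 and 224 in cluster 6. Prss40, an acrosomal protease close in kind to Prss39, had 8.43 and 5.78 CPM in cluster 1 and 75.4 to 120 CPM in the 5 later clusters. In a list of 9 other testis serine proteases, all tested, 5 rose and 1 fell into cluster 2, 2 rose and 4 fell into cluster 3, 3 rose and 2 fell into cluster 4, 3 rose and 1 fell into cluster 5, and 3 rose and 2 fell into cluster 6, beside 25.8% and 24.6%, 31.9% and 31.6%, 26% and 20.4%, 23.2% and 21%, and 16.5% and 23.5% of all genes at the successive steps. Acr, the gene of acrosin, was highest in cluster 4 with 290 and 278 CPM, and Prss58 in cluster 6 with 609 and 559 CPM.

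Of 8 serine protease inhibitors in a list, 2 passed the filter on low counts, Spink2 with 60965 UMIs and Spint5 with 556. Serpina5 had 88 UMIs, and Spint3 and Spint4 had none. Spink2, an acrosomal inhibitor, was highest in cluster 2 with 1617 and 1611 CPM, where Prss21 and Prss42 were highest, and had fallen to 137 and 125 CPM in cluster 6, where Prss55 was highest. It rose into cluster 2 and fell into clusters 3 and 6. Spint5 fell into clusters 2 and 3, and neither gene was called at another step with TMM scaling. Calls of listed genes are given with that scaling only. In CPM, Spink2 declined in each mouse at the steps without a call as well. It had 1225 and 1110 CPM in cluster 3, 934 and 830 in cluster 4 and 548 and 531 in cluster 5.

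With TMM scaling, of 12 genes in a list of ADAM3 maturation and sperm passage, all tested, 5 rose and 4 fell into cluster 2, 4 rose and 6 fell into cluster 3, 4 rose and 4 fell into cluster 4, 3 rose and 3 fell into cluster 5, and 4 rose and 4 fell into cluster 6. The shares of all genes at these steps ran from 16.5% to 31.9% higher and from 20.4% to 31.6% lower. Adam3 itself had 114 and 138 CPM in cluster 1 and 332 to 519 CPM in all later clusters. Clgn, a chaperone of the endoplasmic reticulum, was highest in cluster 2 with 1105 and 1012 CPM and Adam2, the partner of ADAM3, with 469 and 453 CPM. In cluster 5, where Prss37 was highest, Clgn had 275 and 277 CPM and Adam2 had 58.5 and 55.9 CPM. Calr3, Ace and Adam1a of the same list had their highest mean level in cluster 5, Calr3 with 549.5 and 596 CPM. Ace was nearly level, with 315 and 318 CPM in cluster 5 and 296 and 326 in cluster 6. With TMM scaling it was called higher in cluster 6 (log2 fold 0.58, edgeR adjusted p = 0.003). Adam1a had 43.1 and 30.9 CPM in cluster 4 and 44.9 and 32.9 in cluster 5 (log2 fold 0.57, edgeR adjusted p = 0.022). The other genes of the list were highest in an earlier cluster.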

How the data were processed

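The authors demultiplexed the reads with Cell Ranger 2.0.0 and bcl2fastq 2.17.1.14 and counted them against a repeat-masked GRCm38 genome with Ensembl release 89 genes and added repeat sequences. Both mice were then combined with reads downsampled to equal depth per cell. The deposited values are raw UMI counts of each gene in each cell. All 2552 cells were kept, including 25 that scrublet called as doublets. Mouse was taken from the number at the end of each barcode. The authors' cell types were not used here.

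UMIs were scaled to the median cell, log2-transformed after adding 1, centred and scaled, and clustered by K-means (K = 9, 10 principal components, seed 42). Prss genes and listed genes were left out. Prm1, Prm2, Tnp1 and Tnp2 stayed in and were also markers of elongating or condensing spermatids. A name needed at least 3 markers at 1.5 times the CPM of all cells. Pseudotime was scanpy's diffusion pseudotime with 15 neighbours, started from an early spermatocyte-like cell. The tests used edgeR 4.0.16 (R 4.3.3) on sums per mouse and cluster, with TMM, filterByExpr and Benjamini-Hochberg adjustment over all genes, called at an adjusted p under 0.05. The sums of all 6 clusters shared 1 estimate of the spread. The procedure was tested on simulated data in which few genes changed between clusters 2 and 3 and no effect of mouse was put in. That simulation could not check the choice of scaling or a correlation between sums of the same animal. Same-numbered sums came from the same animal, and the correlations of their deviations over genes were 0.032 to 0.231 (15 pairs, median 0.098), so a block for mouse was fitted as an alternative. The other alternatives were DESeq2 1.42.0, scaling to total UMIs (added after the data had been seen), no gene filter, K = 10, Leiden clustering, no doublets, no repeat rows, thinning, other bins, neighbours and components, and each mouse alone. Intervals are exact 95% intervals and cover counting error only.

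The members and lists were chosen with earlier results of these data known. From each list the 3 genes with the most UMIs and those without UMIs were named. Prss43, Prss45 and Prss51 were named for their position, and Tnp1 to complete its list. Calr3, Ace and Adam1a were named outside this rule, as the genes of their list with the highest mean level in cluster 5. The genes most like a member were the 2 with the highest correlation in the mouse with the lower one. Positions and sequences came from GENCODE M21 (GRCm38), and the catalytic positions from a mafft 7.526 alignment to trypsin. Python 3.11.15 with scanpy 1.11.5 and scikit-learn 1.9.0 was used.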

Additional observations from a re-analysis of the deposited data

How the results depend on the processing

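Of 50 log2 folds of a member between successive clusters, 33 were called. Of all genes, 16.5% to 31.9% were called higher and 20.4% to 31.6% lower at each step. Such shares were not computed for the other settings, apart from total UMI scaling. Each mouse alone gave 98 values, as ratios of CPM, none of which turned the sign of a called fold. For folds that were not called, 8 of these values had the other sign, 4 of them for Prss39 and the rest for Prss42, Prss44 and Prss52. With the replicate block for mouse, Prss21, Prss39 and Prss50 were also called from cluster 2 to cluster 3 (adjusted p = 0.020, 0.041 and 0.017) and Prss52 from cluster 5 to cluster 6 (0.0089), and no other call changed. With total UMI scaling, the members lower in cluster 5 than in cluster 4 were 5 in place of 3, those higher in cluster 6 than in cluster 5 were 1 in place of 4 and those lower were 4 in place of 1. The members lower in cluster 2 than in cluster 1 were 1 in place of 2 without doublets and with thinned cells. Those higher in cluster 3 than in cluster 2 were 3 in place of 5 with Leiden clustering and with thinned cells, and those lower in cluster 6 than in cluster 5 were 3 with Leiden clustering. The highest cluster moved to 2 for Prss39 in UMIs per cell, to 2 for Prss44 in UMIs per cell, with thinned cells and without mouse 2, and to 5 for Prss55 in UMIs per cell. Highest clusters were not taken on the TMM scale, on which Prss39 was called higher in cluster 6 than in cluster 3. Leiden clusters shared only part of their cells with the clusters used (0.22 to 0.51 of the union).

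Of the called folds, 3 turned: Prss37 for cluster 2 over 1 without doublets (0.025), and with Leiden clustering Prss54 for cluster 2 over 1 (-0.76) and Prss55 for cluster 6 over 5 (-0.27). The others that turned, beside the values of single mice, were not called in the main test, though a turned value could be called in its own setting. For cluster 2 over 1 these were Prss44 with DESeq2 (-0.070) and total UMI scaling (-0.040), and Prss55 without the filter (0.16), with the replicate block (0.032) and without doublets (0.42). For cluster 3 over 2 it was Prss39 with Leiden clustering (-0.0030). For cluster 4 over 3 it was Prss39 without the filter (-0.0031), with total UMI scaling (-0.19) and thinned (-0.10). For cluster 5 over 4, Prss39 turned without the filter (-0.29) and with total UMI scaling (-0.31, called, edgeR adjusted p = 0.025). At the same step Prss44 turned with Leiden clustering (0.29) and thinned (0.91), and Prss50 with Leiden clustering (3.06). For cluster 6 over 5 these were Prss42 with total UMI scaling (-0.33), Prss46 without the filter (0.080), with DESeq2 (0.16) and Leiden clustering (0.58), Prss52 with total UMI scaling (-0.28) and Leiden clustering (-3.07), and Prss54 without the filter (0.11), with DESeq2 (0.17), Leiden clustering (0.14) and thinned (0.21). Apart from the doublets, the cause was not tested. Depth limited Prss50 most, with 208 UMIs in all.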
